A study of Mus musculus with 2 samples.

Results

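The transcripts of the beta-catenin destruction complex and of Dishevelled were followed in mouse ureters treated with a GSK3 inhibitor. The members were chosen by name: every biological probe whose gene name in both scanner files is Ctnnb1, Apc, Axin1, Gsk3a, Gsk3b, Csnk1a1, Btrc, Dvl1, Dvl2 or Dvl3. These 10 genes had 16 probes, of 29875 genes and 39429 probes on the array. 1 member passed the test, namely Ctnnb1, whose transcript was 1.54-fold lower with the inhibitor, and 0 members rose, where 23.9% of all genes tested passed. The call of Ctnnb1 was lost in 2 of the 10 tested ways of processing.

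In canonical WNT signaling, the scaffolds AXIN1 and APC hold beta-catenin while casein kinase 1 and then GSK3 phosphorylate it, and the ubiquitin ligase receptor BTRC marks the phosphorylated protein for degradation. WNT ligands recruit Dishevelled and AXIN1 to the membrane, beta-catenin escapes degradation, and it activates target genes with TCF/LEF factors. In the early ureter this pathway is known for its role in the mesenchyme, from which the smooth muscle coat forms. All of these steps act on proteins, whereas the arrays measured RNA.

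Ureters came from wildtype NMRI mouse embryos at E12.5, with sex not determined, and were pooled. They were kept as explants on transwell membranes for 18 h in a DMEM/F12-based medium, which held either 10 µM BIO (6-bromoindirubin-3-oxime, an inhibitor of both GSK3 kinases) or DMSO alone at 2 parts per 1000 as the control. Each of the 2 arrays paired control RNA with BIO RNA. BIO RNA was read in red on replicate 1 and, with dyes exchanged, in green on replicate 2. The single question was how RNA levels differ between BIO-treated and control explants. As whole ureters were lysed, fewer cells of a type and less RNA per cell cannot be told apart.

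All values of relative expression given here are log2 ratios of BIO over control, turned on the swapped array so that a negative value means less RNA with BIO. Levels are given as processed signals, which are intensities in arbitrary units that serve to compare the channels of one probe and not one probe with another. The arrays shared 1 slide and 1 scan. On them, 70.1% to 80.9% of the spots for genes exceeded background clearly in a channel, and over 21574 genes, which are not independent replicates, the ratios of the arrays correlated with r = 0.811 (Pearson) and rho = 0.685 (Spearman). All 16 member probes were well above background in both channels of both arrays. Of the 64 spots that carried them on each array, 62 were kept in replicate 1 and 64 in replicate 2. The SD between the spots of a member probe lay between 0.0161 and 0.131 on the log2 scale.

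Each probe is a strand of 60 bases, and its place is given in the mouse build mm9 of the file headers. The probe positions and the probe sequences were taken from the deposited scanner files. 2 probes are shown. The first belongs to Gsk3b and covers 3646 bases of genome from end to end (chr16:38187987-38191632, plus strand), so that it crosses an intron and reads spliced RNA. The second is the only probe of Dvl3 (chr16:20531470-20531529, plus strand), which has the highest GC content of the member probes, 76.7%. All letters are in lower case, as no base is marked.

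Gsk3b probe: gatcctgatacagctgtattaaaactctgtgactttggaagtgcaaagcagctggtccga

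Dvl3 probe: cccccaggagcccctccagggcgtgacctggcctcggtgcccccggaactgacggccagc

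RefSeq promoter windows (GRCm38.p6, 250 bases before to 50 after a transcript start) were on hand for 6 of the 10 members. The stretches before the start are shown for Ctnnb1, the member that changed, at the first of its windows, and for Gsk3a and Gsk3b, whose proteins BIO inhibits. Capitals mark the letters TCAAAG, which are the core of the motif that TCF/LEF factors are known to bind. They were searched on both strands, the other strand reading CTTTGA.

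Ctnnb1 promoter, chr9:120933150-120933399, plus strand: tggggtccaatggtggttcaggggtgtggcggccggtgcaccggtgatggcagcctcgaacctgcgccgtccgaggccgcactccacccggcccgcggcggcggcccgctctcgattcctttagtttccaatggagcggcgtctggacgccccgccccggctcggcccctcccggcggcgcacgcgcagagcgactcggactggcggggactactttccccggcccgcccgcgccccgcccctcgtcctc

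Gsk3a promoter, chr7:25237852-25238101, minus strand: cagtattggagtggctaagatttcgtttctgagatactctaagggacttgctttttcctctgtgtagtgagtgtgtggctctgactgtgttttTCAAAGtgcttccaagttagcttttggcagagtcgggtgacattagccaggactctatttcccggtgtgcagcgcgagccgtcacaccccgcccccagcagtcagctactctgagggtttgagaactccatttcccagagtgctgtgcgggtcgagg

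Gsk3b promoter, chr16:38088751-38089000, plus strand: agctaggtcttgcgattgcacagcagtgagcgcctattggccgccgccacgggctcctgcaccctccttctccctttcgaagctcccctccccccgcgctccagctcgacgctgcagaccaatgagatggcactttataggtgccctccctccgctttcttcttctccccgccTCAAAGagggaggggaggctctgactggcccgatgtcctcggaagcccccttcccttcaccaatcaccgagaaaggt

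The letters started 157 bases before the start of Gsk3a and 77 bases before that of Gsk3b. They stood in windows of 2 of these 6 members, and in those of 4911 of 27025 genes with a window, a share of 18.2%. The windows of Ctnnb1, Dvl1, Dvl2 and Dvl3 did not hold them, which says only that these letters are not in these windows. The windows of the members were rich in GC, with a median of 72.3% against 52.7% over all windows. Nothing measured here tells whether a factor binds at these letters.

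Of the 10 members, 1 was called at an adjusted p below 0.05 (limma, Benjamini-Hochberg over all probes tested, n = 2 arrays). Over all genes the same test called 5154 of 21574, or 23.9%, with 9.13% higher and 14.8% lower with BIO. From the deposited value table these calls were split differently, 1929 higher and 1319 lower. The 1 member called was lower. The median log2 ratio of the members was 0.02, against -0.01 over all genes, and the median of its absolute size was 0.12 against 0.19. No list test was made, and nothing particular to the members is read from these figures. The mean ratios of the members ran from -0.63 to 0.35. A change of at least 2-fold, an absolute log2 ratio of 1, was reached by 0 members and by 3.71% of all genes. Only 4 of the 10 members had the same sign on both arrays, whereas 72.9% of all genes did. These 4 were Ctnnb1, Axin1, Gsk3b and Csnk1a1, and the other members lay on both sides of 0.

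**Figure D1:**
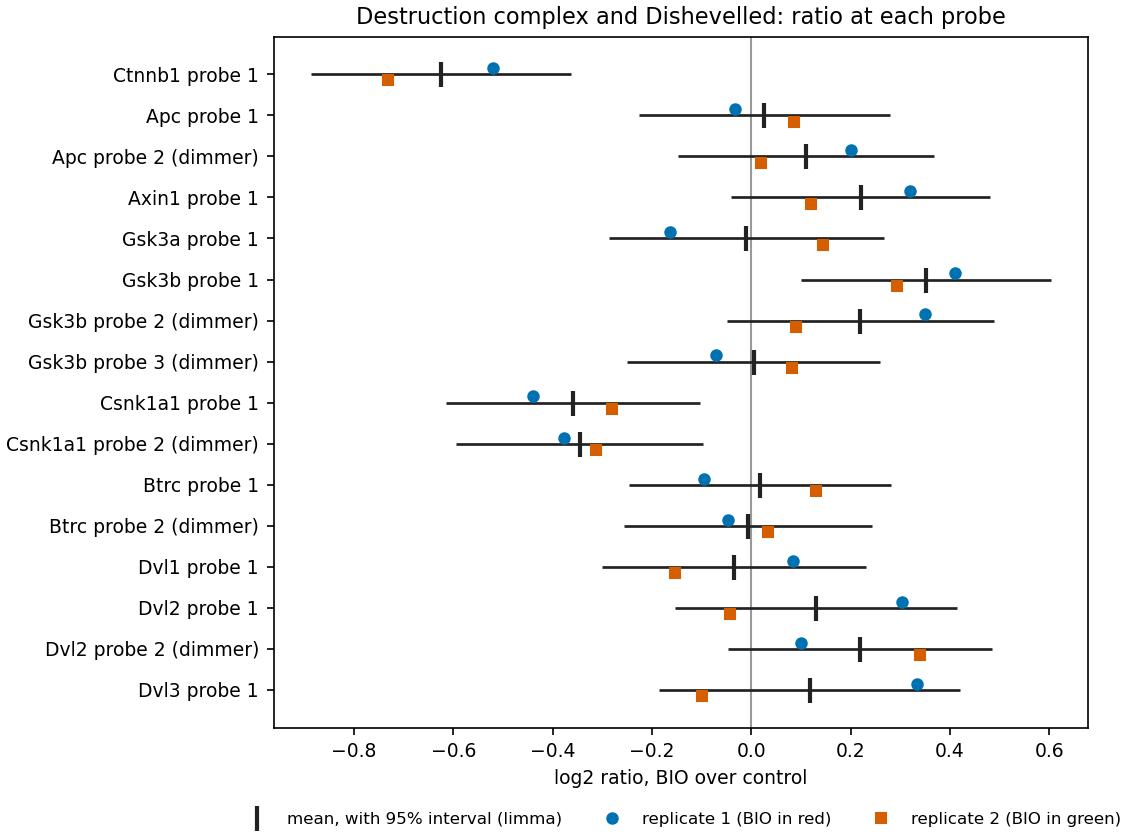
Log2 ratio of BIO over control (x axis) at each of the 16 member probes (rows). Circles are replicate 1 with BIO in red, squares replicate 2 with BIO in green, and bars the mean with its 95% interval (limma). The interval of Ctnnb1, -0.89 to -0.36, lies farthest below 0, and those of the first probe of Gsk3b and of both probes of Csnk1a1 also leave out 0.

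Ctnnb1 encodes beta-catenin, the protein that the complex degrades and also a part of adherens junctions. Its probe (NM_007614, chr9:120869274-120869333) had a control signal of 36455 and a BIO signal of 24922 in replicate 1. In replicate 2 these were 40443 and 24748. Both BIO values were thus below both control values, but how many of all genes show such a separation was not counted. The log2 ratios were -0.52 and -0.73, averaging -0.63 ± 0.11 (SE, n = 2) with a 95% interval from -0.89 to -0.36. The adjusted p was 0.00595 (limma). Each of the 4 spots on each array was below 0, from -0.66 to -0.43 in replicate 1 and from -0.82 to -0.61 in replicate 2. The ratio of each alternative run kept its sign, from -0.73 to -0.39, but the call did not. It was lost with median centring in place of loess, where the mean was -0.39 (adjusted p = 0.292, limma). In that run replicate 1 gave -0.19 and replicate 2 gave -0.58. The call was also lost with the deposited value table, where the mean was again -0.63 (adjusted p = 0.0805, limma).

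Apc and Axin1 encode the scaffolds of the complex. The probe of Axin1 (NM_001159598, chr17:26332106-26332165) read 567 (control) and 749 (BIO) in replicate 1, and 632 and 713 in replicate 2. BIO was the brighter channel on both arrays. The ratios were 0.32 and 0.12, with a mean of 0.22 ± 0.11 (SE), an interval from -0.04 to 0.48 and an adjusted p of 0.204 (limma), so that the difference did not pass the test.

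Apc had 2 probes on chromosome 18 (NM_007462). The brighter, which crosses an intron and covers 4076 bases of genome, read 119 (control) and 126 (BIO) in replicate 1, and 127 and 143 in replicate 2. Its ratios were -0.03 and 0.09, and the interval of the mean of 0.03 ran from -0.23 to 0.28 (adjusted p = 0.896, limma). The channels thus differed by less than the error. Signals and ratios were normalized separately, so that small differences can carry opposite signs, as in replicate 1 here. The second probe had ratios of 0.20 and 0.02 and a mean of 0.11 (adjusted p = 0.538, limma). An offset of 50 is added to the intensities before the ratio is taken, and it pulls the ratios of probes as dim as these toward 0. In the deposited value table, in which both arrays list the same fold of 1.1 for the brighter probe, Apc was called as higher (adjusted p = 0.0478, limma).

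GSK3 is the target of BIO, and its genes Gsk3a and Gsk3b encode kinases that phosphorylate beta-catenin. The only probe of Gsk3a (NM_001031667, chr7:26013279-26013338, minus strand) gave 14974 with DMSO and 14304 with BIO on the first array, and 15613 and 17568 on the second. The arrays thus differed in direction. The ratios were -0.16 and 0.14, with a mean of -0.01 ± 0.12 (SE), an interval from -0.29 to 0.27 and an adjusted p of 0.966 (limma).

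Gsk3b (NM_019827) had 3 probes along chromosome 16. The brightest (chr16:38241177-38241236) read 5530 (control) and 7548 (BIO) in replicate 1, where 3 of its 4 spots were kept, and 5951 and 7374 in replicate 2. Both BIO values exceeded both control values, a separation that was not counted over all genes. The ratios were 0.41 and 0.29, with a mean of 0.35 ± 0.11 (SE) and an interval from 0.10 to 0.60. The adjusted p of 0.0512 (limma) missed the threshold. The probe across the intron, printed above, read 1345 and 1821 in replicate 1, and 1412 and 1510 in replicate 2. Its ratios were 0.35 and 0.09, with a mean of 0.22 ± 0.12 (SE) and an adjusted p of 0.220 (limma). The third probe (chr16:38246094-38246153) starts 4858 bases downstream of the brightest. Here the ratios were -0.07 and 0.08, and the mean of 0.00 had an interval from -0.25 to 0.26 (adjusted p = 0.983, limma). The probes of Gsk3b therefore differed in their means, from 0.00 to 0.35, while their intervals overlapped, and the difference between the probes was not tested. With a prior that follows the intensity, the brightest probe passed (adjusted p = 0.0302, limma). With median centring it had 0.37 (adjusted p = 0.319, limma). The mean of the 3 probes was 0.19 (adjusted p = 0.210, limma).

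Csnk1a1 encodes casein kinase 1 alpha, which primes beta-catenin for GSK3. Its brighter probe on chromosome 18 (NM_146087) read 26525 (control) and 20460 (BIO) in replicate 1, and 28442 and 23713 on the swapped array. The second probe read 8311 and 6554, and 8363 and 6662. At both probes and on both arrays BIO was the dimmer channel. Control and BIO did not overlap, which was likewise not counted over all genes. Probes farther from the threshold were separated as well, so that nothing is read from it. These were the probe of Axin1 (adjusted p = 0.204) and the second probes of Apc (0.538), Gsk3b (0.220) and Dvl2 (0.214; all limma). The ratios of the brighter probe were -0.44 and -0.28, with a mean of -0.36 ± 0.11 (SE) and an interval from -0.62 to -0.10. Those of the second were -0.38 and -0.31, with a mean of -0.35 ± 0.11 (SE). The adjusted p values of 0.0501 and 0.0523 (limma) lay just above the threshold. Median centring gave the brighter probe -0.15 (adjusted p = 0.829, limma), and the deposited value table gave it -0.32 (adjusted p = 0.160, limma). Csnk1a1 passed in 3 alternatives, namely with the mean of its probes (adjusted p = 0.0371), with the prior that follows the intensity (0.0408) and when only probes well above background in both conditions were tested (0.0493; all limma).

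**Figure D2:**
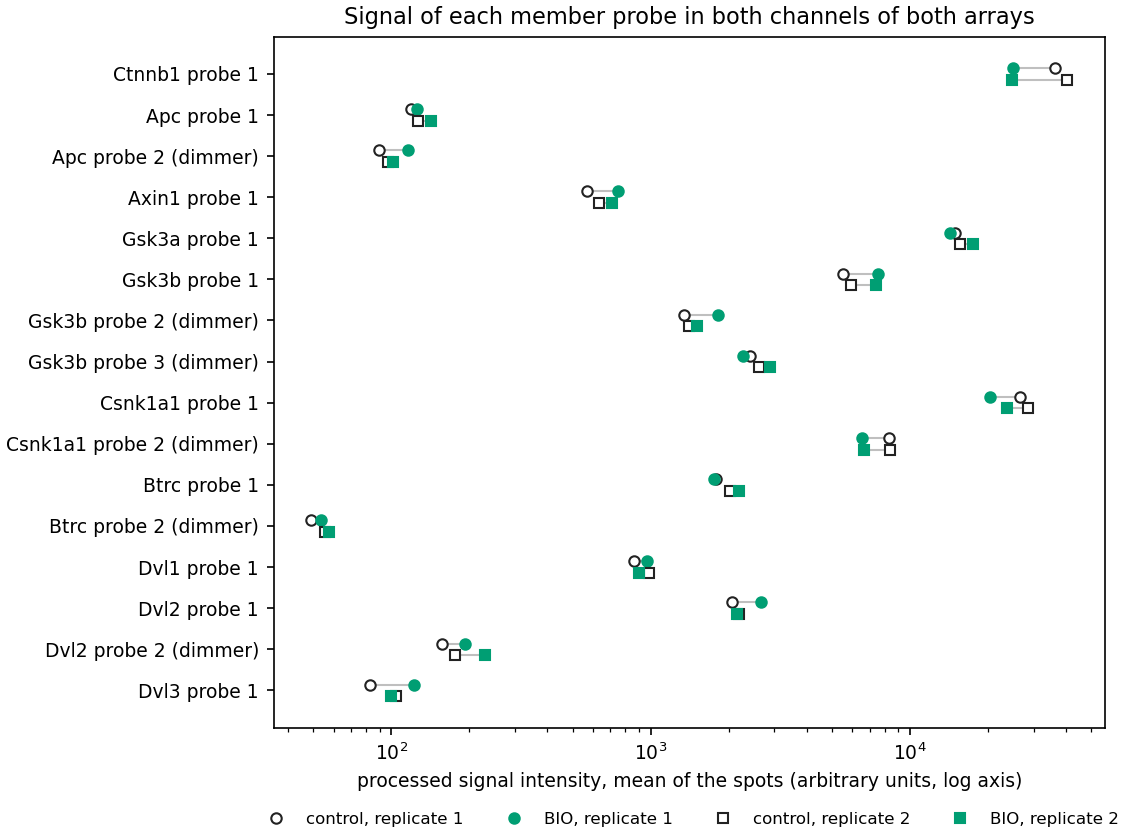
Processed signal intensity (x axis, log scale, arbitrary units) of each member probe (rows), as the mean of its spots. Open symbols are control and filled symbols BIO, with circles for replicate 1 and squares for replicate 2, and a line joins the channels of one array. The filled symbols lie left of the open ones on both arrays for Ctnnb1 and Csnk1a1. They lie right of them on both arrays for Axin1, Apc, the first and second probes of Gsk3b, and the second probes of Btrc and Dvl2.

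BTRC recognizes phosphorylated beta-catenin for the SCF ubiquitin ligase. The brighter probe of Btrc (NM_001037758, chr19:45607701-45607760) gave 1781 with DMSO and 1757 with BIO on the first array, and 2023 and 2196 on the second. Its ratios of -0.10 and 0.13 had opposite signs, and the mean of 0.02 ± 0.11 (SE) had an interval from -0.25 to 0.28 (adjusted p = 0.935, limma). The second probe (chr19:45604418-45604477) was dim, with signals from 49.1 to 57.4, and had a mean of -0.01 (adjusted p = 0.974, limma).

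The Dishevelled genes Dvl1, Dvl2 and Dvl3 encode the cytoplasmic proteins that pass the signal from Frizzled receptors to the complex. Dvl1 (NM_010091, chr4:155233151-155233210) read 862 (control) and 973 (BIO) in replicate 1, with 3 spots kept, and 984 and 906 in replicate 2. Its ratios were 0.08 and -0.15 and the mean was -0.03 ± 0.12 (SE), with an interval from -0.30 to 0.23 (adjusted p = 0.869, limma). The direction thus differed between the arrays.

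Dvl2 (NM_007888) had a brighter probe at chr11:69823260-69823319, which read 2065 (control) and 2659 (BIO) in replicate 1, and 2197 and 2163 in replicate 2. Its ratios were 0.30 and -0.04, with a mean of 0.13 ± 0.12 (SE), an interval from -0.15 to 0.41 and an adjusted p of 0.505 (limma). BIO was higher on replicate 1 alone. A second probe 2425 bases downstream, assigned in the files to the transcript ENSMUST00000102575, had ratios of 0.10 and 0.34 and a mean of 0.22 ± 0.12 (SE, adjusted p = 0.214, limma).

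Dvl3 (NM_007889), at the probe printed above, gave 82.9 with DMSO and 122 with BIO on the first array, and 104 and 99.4 on the second. The ratios of 0.33 and -0.10 differed in sign, and the mean of 0.12 ± 0.13 (SE) had an interval from -0.19 to 0.42 (adjusted p = 0.579, limma). For all 3 Dishevelled genes, replicate 1, with BIO in red, gave the higher ratio at the brightest probe. The swap cancels a dye effect in the mean, but with 2 arrays the dye and the replicate cannot be told apart.

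For the members that were not called, the intervals of the mean were read at the brightest probe. They depend on the processing, and with median centring the SE was 0.22 for each member. The dim probe of Dvl3 had 0.53 in replicate 1 and a mean of 0.22 ± 0.18 (SE) with processed signals. In the main analysis, those of Apc, Gsk3a, Btrc and Dvl1 lie within -0.30 and 0.28, and those of Axin1, Dvl2 and Dvl3 reach up to 0.48. The intervals of Gsk3b and Csnk1a1 extend farther, to 0.60 and to -0.62. A missed threshold does not show that their levels were equal. The smallest absolute ratio called over all genes was 0.35, so that no smaller change was called with 2 arrays. At an unadjusted p below 0.05, there were 3 of the 10 members, namely Ctnnb1, Csnk1a1 and Gsk3b (limma, n = 2). The same held for 7919 of the 21574 genes tested, so that no excess among the members is read from these counts.

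**Figure D3:**
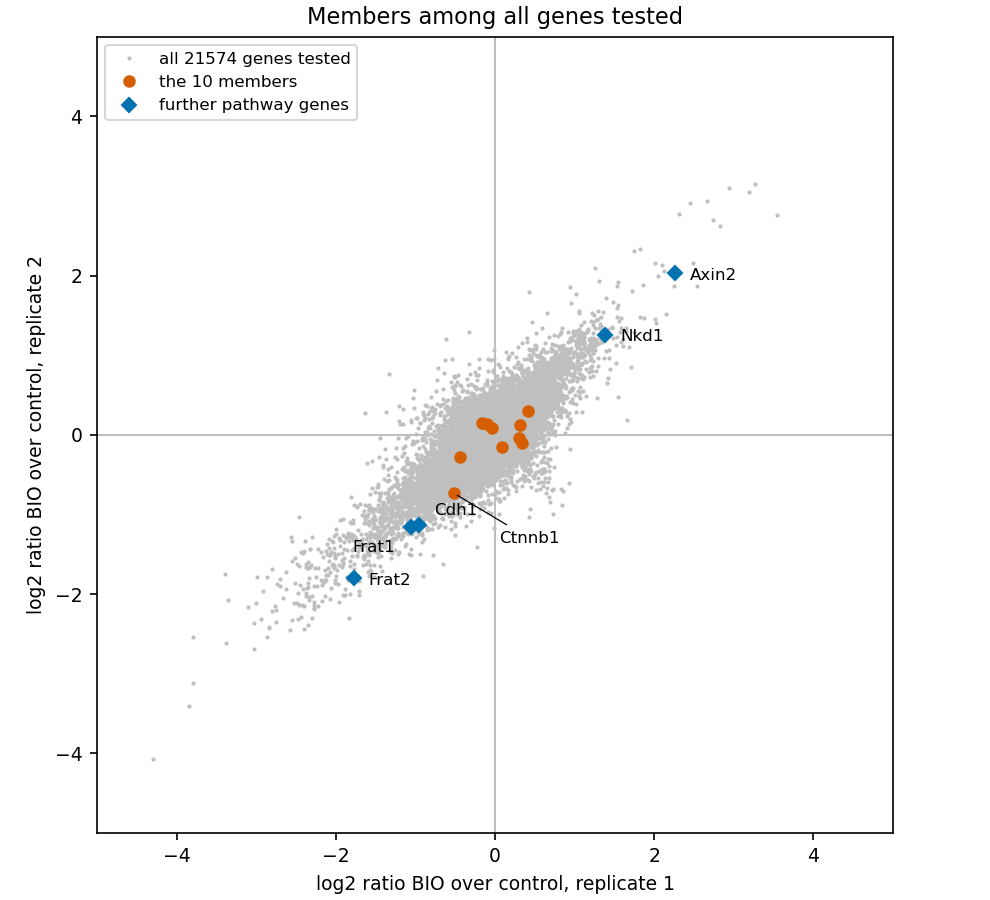
Log2 ratio of BIO over control in replicate 1 (x axis) and replicate 2 (y axis) for the 21574 genes tested (grey), the 10 members (orange circles) and 5 further genes of the pathway (blue diamonds). The members lie near the center, with Ctnnb1 the lowest at -0.52 and -0.73, while Axin2 lies at 2.27 and 2.03 and Frat2 at -1.77 and -1.80.

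An intensity and fold rule, which asks for a 2-fold or larger change of 1 sign on both arrays and a brighter channel of at least 100, was passed by 662 genes, or 3.07%. No member passed it, and 0 members passed with a fold of 1.5 or 3 or an intensity of 50 in its place. This rule has no test. On the processed signals, to which the rule was applied, Ctnnb1 was again below 0 on both arrays and was called by limma (adjusted p = 0.0253).

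Lists of further genes of the pathway were set beside the members. They held 66 genes, of which 65 were tested and 10 called, 3 higher and 7 lower with BIO. Their median log2 ratio was -0.11. That is 10 of 65 against a background of 23.9% over all genes, and 1 gene, Prickle2, had no probe bright enough to be tested. The lists follow the partners of the members. Their counts stand beside 9.13% higher and 14.8% lower over all genes, and no excess in a list was tested.

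Among 11 paralogs and further scaffold genes, 2 rose and 0 fell, with a median of -0.02. Axin2, the paralog of Axin1 and a feedback target of WNT signaling, read 827 (control) and 4212 (BIO) in replicate 1, and 865 and 3690 in replicate 2. Its ratio was 2.15 ± 0.12 (SE), with an adjusted p of 3.41e-05 (limma). Its second, dimmer probe rose less, by 1.13 ± 0.17 (SE, adjusted p = 0.00246, limma). The mean ratio of Axin1, given above, was 0.22, and the difference between these genes was not tested. The other gene that rose was Amer2, whose protein binds APC, at 0.42 with 0.27 and 0.57 on the arrays (adjusted p = 0.0385, limma). Its second probe had -0.0031 and 0.53 and was not called.

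The remaining paralogs of the members did not pass the test. Apc2 had a mean of -0.02 (adjusted p = 0.923), Fbxw11, the paralog of Btrc, -0.11 (0.536), and the casein kinase genes Csnk1d and Csnk1e -0.25 (0.178) and -0.01 (0.961; all limma). Jup, which encodes gamma-catenin, the junctional relative of beta-catenin, had ratios of -0.17 and -0.89 and a mean of -0.53 ± 0.17 (SE, adjusted p = 0.0520, limma). Its signals were low, from 53.9 to 121.

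Of the 9 genes for proteins that bind GSK3 or lie upstream of it, 3 fell and 0 rose, with a median of -0.26. Frat1 and Frat2 encode GSK3-binding proteins that are known to keep the kinase from beta-catenin. Frat2 read 916 (control) and 268 (BIO) in replicate 1, and 978 and 274 in replicate 2, a ratio of -1.79 ± 0.11 (SE, adjusted p = 5.03e-05, limma). Its second probe fell less, by 0.60. Frat1 read 925 and 465, and 999 and 443, a ratio of -1.11 ± 0.11 (SE, adjusted p = 0.000328, limma). At their brightest probes, Frat1 and Frat2 had ratios larger in size than those of the 10 members, but the second probe of Frat2 was below Ctnnb1 in size, and a test between genes was not made.

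Among the 12 genes listed around the SCF ubiquitin ligase and the tankyrase arm, 0 were called. The ratios ran from -0.32 to 0.15 with a median of -0.07. Of 9 subunits of the phosphatase PP2A, 1 fell, near the share of 14.8% lower over all genes. This was the scaffold subunit Ppp2r1a, with ratios of -0.26 and -0.72 and a mean of -0.49 (adjusted p = 0.0327, limma). Of 15 tested genes for Dishevelled-binding and planar polarity proteins, 1 rose and 0 fell, with a median of 0.00. This was Nkd1, whose product binds Dishevelled and dampens WNT signaling, with signals of 8266 (control) and 23251 (BIO) in replicate 1, of 8627 and 21080 in replicate 2, and with a ratio of 1.32 ± 0.11 (SE, adjusted p = 0.000168, limma). The probes of its paralog Nkd2 differed: the brighter, by which the gene was counted, had a mean of 0.04 (adjusted p = 0.856), and the dimmer was higher with BIO at 1.09 and 0.73, with a mean of 0.91 (adjusted p = 0.00154; both limma).

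Beta-catenin also links cadherins to alpha-catenin at adherens junctions. Of 9 genes listed as partners of beta-catenin, among them Ctnnbip1, which encodes an inhibitor of its binding to TCF factors, 3 fell and 0 rose, with a median of -0.27. Ctnna1, which encodes alpha-catenin, had ratios of -0.45 and -0.66 and a mean of -0.55 ± 0.11 (SE, adjusted p = 0.0100, limma). Cdh1, the cadherin of epithelia, fell by 1.04 (adjusted p = 0.000486, limma). Cdh5, the cadherin of endothelium, fell by 2.32 (adjusted p = 0.000270, limma).

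**Figure D4:**
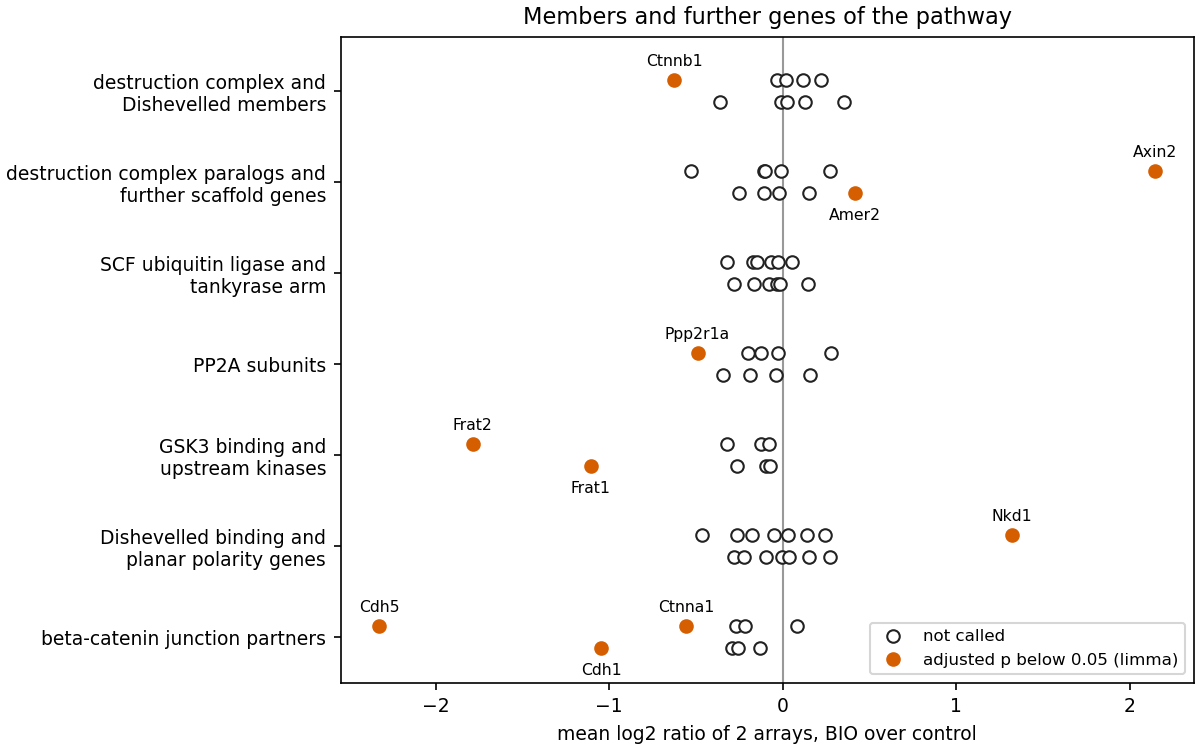
Mean log2 ratio of BIO over control (x axis) of the members and of the further genes reported, each at its brightest probe, with a row for the members and for each list. Filled points are genes with an adjusted p below 0.05 (limma) and are named. 1 of 10 members is filled, with Axin2 at 2.15 on the right and Cdh5 at -2.32 on the left.

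The fall of Ctnnb1 and of 3 of the 9 junction partners stood beside lower levels of cell type markers. All 8 endothelial markers fell (median -2.07, with Kdr at -2.63). Their summed signal was 28597 and 34430 in control and 5317 and 9919 with BIO. Such sums weigh the brightest probes most and do not measure the amount of a cell type. Of 10 ureteric epithelium markers, 7 fell and 0 rose (median -0.90, with Foxa1 at -2.17), from sums of 101052 and 101830 to 55039 and 66665. Of 10 ureteric mesenchyme markers, 8 fell and 0 rose (median -0.64, with Pdgfrb at -2.17), from 357312 and 387648 to 219749 and 242080. All markers of these 3 lists were bright enough to be tested, Cdh1 and Cdh5 are counted both here and among the junction partners, and Epcam, Gata3, Cldn3, Tbx18 and Foxf1 were not called. The part of these markers in the result for Ctnnb1 was not tested.

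Further lists were counted in the same way, beside the 9.13% higher and 14.8% lower over all genes. Of the tested macrophage markers 4 of 7 fell, of the neural crest markers 2 of 7 and of the erythroid markers 3 of 8, while of 8 kidney mesenchyme markers 1 rose and 2 fell. All 12 cell cycle genes rose (median 1.00, Aurkb at 1.25 and Top2a at 1.22). Of 6 reference genes 1 fell, Ywhaz at -0.44, and their median was -0.13. Of 12 canonical WNT targets 10 rose and 1 fell (median 1.20), among them Sp5 at 2.80. Ctnnb1 was thus lower in the RNA of explants in which the targets of its protein were mostly higher.

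**Figure D5:**
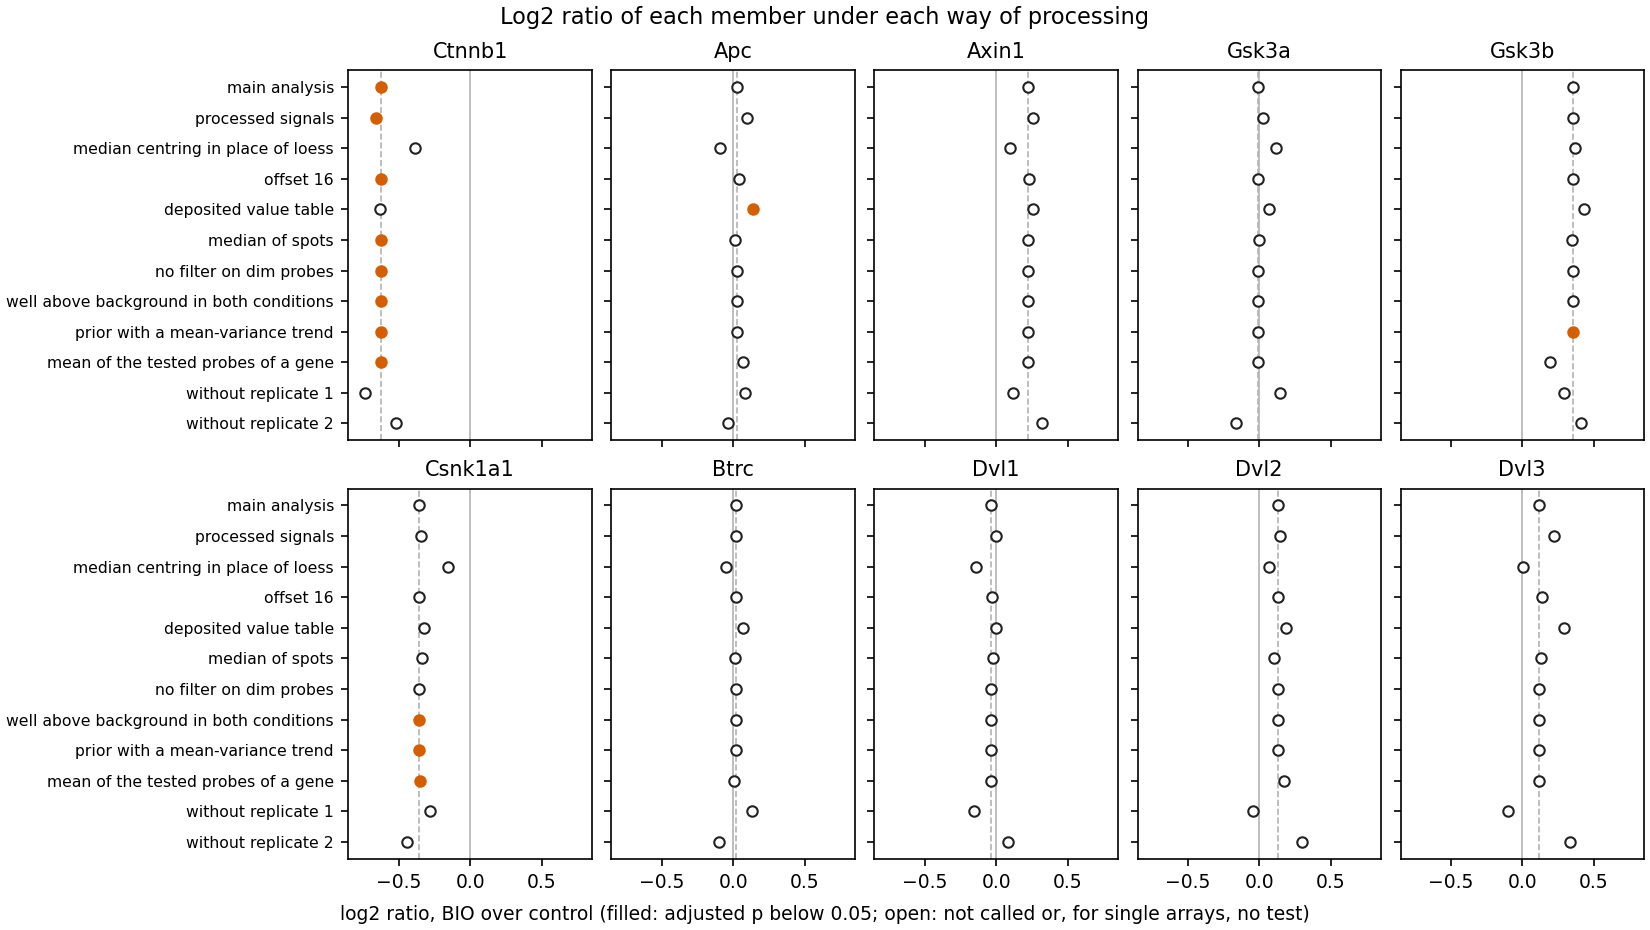
Log2 ratio of BIO over control (x axis) of each member (panels) under the main analysis and each alternative way of processing (rows). Filled points have an adjusted p below 0.05 (limma), and single arrays have no test. Ctnnb1 is below 0 in every row and called in 8 of the 10 tested settings, Csnk1a1 is called in 3, Gsk3b and Apc in 1 each, and the other members in 0.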

How the data were processed

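Total RNA of BIO-treated and control explants was labeled with AlexaFluor555 (green) or AlexaFluor647 (red) and hybridized to 2 Agilent arrays with exchanged dyes. The study's methods describe 2 pools of ureters a condition, so each array was taken as 1 replicate. Per the submitters' processing notes and the file headers, the authors quantified scans with Agilent Feature Extraction 10.7.3.1, and the deposited scanner tables give, for 4 spots a probe, mean and local background intensities, not normalized, and processed intensities, background-subtracted and dye-normalized. A further deposited table holds 1 score per probe and array, which follows a signed fold of BIO over control (r = 0.988 and 0.982 against processed ratios, column medians 1). How it was made and centered is not given in the sources used here.

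In R 4.3.3 with limma 3.58.1, mean intensities were corrected by normexp (offset 50), ratios normalized by loess within the array with control and outlier spots at weight 0 (outliers 3.49% and 3.16%, 0 saturated), and the remaining spots averaged. Probes well above background (over a share of 0.5 of their spots) in one condition on both arrays were tested, 28824 in all, by lmFit and eBayes against 0, two-sided, with Benjamini-Hochberg adjustment at 0.05. The prior had 7.14 degrees of freedom. No dye term was fitted, since 2 arrays leave no degree of freedom for it. The number of arrays limits precision, and the median SE was 0.111. The intensity and fold rule used processed signals with a floor of 15, centered on the median. The scripts were tested on simulated data.

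A gene was represented by its brightest tested probe. Of 39429 probes, 28328 were named by accession, 3400 by symbol and 243 by synonym through RefSeq GRCm38.p6, and 7458 kept the name in the files. All members, the paralogs and up to 4 called genes a list and direction were named, with at most 2 for marker and cell cycle lists. Markers named as not called or not tested, and Prickle2, Nkd2 and Ctnnbip1, were chosen after their values were seen. 1 called gene of the lists is counted but not reported here by name, nor drawn. Members and lists were chosen with earlier results of these data known. Alternatives were processed signals, median centring, an offset of 16, the deposited table, median of spots, no or a stricter filter, a trend in the prior, the mean of a gene's probes and each array alone.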

Additional observations from a re-analysis of the deposited data

How the results depend on the processing

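No further paired analysis could be added. The ratio within an array already pairs control and BIO RNA of 1 number, and its test against 0 is the paired test. Over all members and alternatives, a ratio gained the call 5 times and lost it 2 times, and 0 calls reversed. The ratios of Apc, Gsk3a, Btrc, Dvl1, Dvl2 and Dvl3, not called in the main analysis, took both signs. The count of members called was 1 (0 risen, 1 fallen), but 0 with median centring (0 fallen), 2 with the stricter filter (2 fallen) and with the mean of a gene's probes (2 fallen), and 3 with the trend in the prior (1 risen, 2 fallen). With the deposited table Apc rose and Ctnnb1 missed the threshold (1 called, 1 risen, 0 fallen). That table is rounded, and 5739 tested probes (19.9%) had the same value on both arrays. Otherwise the cause was not tested. The median of the members, 0.022, moved to 0.063 with processed signals, -0.024 with median centring, 0.031 with an offset of 16, 0.103 with the deposited table, 0.013 with the median of spots and 0.037 with the mean of a gene's probes, and lay between 0.021 and 0.025 on single arrays. Fallen further genes went from 7 to 11 with the mean of a gene's probes, and cell type markers called from 35 to 23 with median centring and 4 with the deposited table. Over all genes, 5154 calls (38.2% higher) became 2766 with median centring and 3248 (59.4% higher) with the deposited table. The fold rule gave 1794 genes at 1.5-fold, 195 at 3-fold and 880 to 1041 on single arrays in place of 662. With 2 arrays, ratios on single arrays have no test, and dim probes such as those of Apc, Dvl3 and the second of Btrc limit what could be detected.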
